A study of Sus scrofa with 36 samples.

Results

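The genes examined here mark immune cells in the adrenal gland of the pig. A list of 43 genes was taken by symbol, chosen with earlier results of these data known, and covers macrophages, T cells, B cells and granulocytes, with the genes shared by all leukocytes set apart as a pan-leukocyte class. Of the 43, 40 had a probe on the array and 36 had a probe that could be tested, out of 60305 probes on the array and 45943 tested. The array names 14606 genes by a symbol, 12708 of them with a tested probe. By class, 16 macrophage, 4 pan-leukocyte, 10 T cell, 3 B cell and 3 granulocyte genes were tested. ITGAM, MARCO and ZAP70 were not matched to a probe. CD4, CD8B, GZMA and PRF1 had a probe but were well above background on 7, 2, 5 and 3 of the 36 arrays, which was too few for a test.

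Adrenal RNA from 36 castrated male pigs was hybridised with 1 dye, Cy3, to 1 porcine array per pig. The pigs were Creole, Large White or F1, the cross of these 2 breeds, with 12 pigs per breed. In each breed 6 pigs were slaughtered under thermoneutral conditions at 24 °C (TN), and 6 after heat stress (HS), given as 32 °C for 5 days in the protocol, though some were kept a day less, and as 30 °C in the labels. All pigs entered the climatic room at 11 weeks of age and shared 1 diet. HS pigs were slaughtered after the TN pigs, and the paper reports that HS pigs ate less in the heat. Temperature therefore cannot be told apart from day of slaughter, age and feed intake. Pigs shared pens and litters, which the labels do not give, so that every p-value treats them as independent.

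Macrophages live among the steroid-producing cells and along the capillaries of the adrenal cortex. They clear dying cortical cells and debris, partly through C1q, the first complement component, which tags such material for uptake. T and B cells are scarce in a healthy gland, and granulocytes reach it with the blood, so whole-gland RNA holds the transcripts of resident and of circulating cells together. In such RNA, fewer cells of a type and less RNA per cell cannot be told apart.

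The tissue carried the marks of an adrenal gland. All 10 cortex genes and all 8 medulla genes tested were above background on all 36 arrays, among them STAR, which brings cholesterol into the mitochondrion, and PNMT, which makes adrenaline. On single arrays 42436 to 48060 probes exceeded background, and the arrays correlated with each other at 0.9818 to 0.9958. No member gene was saturated on any array. The arrays lay on 5 slides, and each slide held as many TN as HS arrays.

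Values are log2 of the quantile-normalised intensity, and differences are differences of log2 values. A gene is represented by its brightest probe. A difference passed the test when its adjusted p, by limma with Benjamini-Hochberg adjustment over all 45943 probes, was under an FDR of 0.05. Because each probe binds with its own strength, levels were compared between pigs and never between genes.

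The probes of the genes that passed a test by temperature or between Large White and Creole are shown by their first 30 of 60 bases, as listed in the scanner files, since the values of these 7 genes are read through the full 60 bases they belong to.

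S100A8: tggacatcaacaaggatggtgcagttaact
S100A12: aagacgaacaggtcagctttaaagaattcg
C1QA: taagggccgcatttaccagggttcagaagc
C1QC: tcaccttctgtgaccacatgtctaatagca
CYBB: atgtgggtcgtactgccaaatgcccagata
CSF1R: tggcatcctggtgaacagcaagttctacaa
CD3D: gttgaggactgtcaagtgcttcttctgcac

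The 3 S100 genes lie next to each other on chromosome 4 of Sscrofa11.1, with S100A8 at chr4:96209670-96210603, S100A12 at chr4:96225691-96227030 and S100A9 at chr4:96236114-96238989. Their 60-base probes shared no run longer than 6 bases, so the 3 signals come from different sequences. C1QA (chr6:80586259-80589213), C1QC (chr6:80592591-80597464) and C1QB (chr6:80601680-80606076) also lie side by side, and the longest run shared between their probes was 6 bases.

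The comparison of HS with TN pigs addressed the response to heat. It gave 1 member past the FDR of 36 tested, S100A8, against 0.886% of all probes (0.39% higher and 0.496% lower in HS). The macrophage class was mostly lower in HS, with 14 of 16 genes below 0 and a median difference of -0.12, but none of them passed the test. The T cell class lay on the other side by brightest probe, with 8 of 10 genes above 0 and a median of 0.07. None of them passed the test. The second probes of LCK and CD2 gave -0.01 and -0.04, while those of CD3D, CD3E, CD8A, CD5 and GZMB gave positive differences. Of 12 other T and NK cell genes, outside the members, 8 were lower and 4 higher in HS. Their median was -0.03, with 0 past the FDR, so the direction was not shared by this list. Over all members the median was -0.04, with 23 lower and 13 higher, and over all probes it was 0.00 with 50% higher. At an unadjusted p under 0.05 there were 7 of 36 members, against 13.4% of all probes.

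S100A8 encodes a subunit of calprotectin, a calcium-binding protein that fills the cytoplasm of neutrophils and is also made by monocytes. In Creole pigs its log2 level ran from 8.73 through a median of 9.24 to 9.92 in TN, and from 8.21 through 8.86 to 9.71 in HS. In Large White pigs it ran from 8.62 through 9.20 to 10.29 in TN, and from 7.58 through 8.31 to 8.64 in HS. In F1 pigs it ran from 8.89 through 9.16 to 9.64 in TN, and from 7.60 through 8.63 to 9.28 in HS. The groups overlapped in all 3 breeds, in Large White only just, and 16 of 18 HS pigs were under their own breed's TN mean. S100A8 fell by 0.71 on the log2 scale (SE 0.15, 95% interval -1.02 to -0.40), which is 1.64-fold lower, with an adjusted p of 0.0186 by limma.

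The plain difference in S100A8 between HS and TN lay between -1.02 and -0.53 within the 5 slides. The -1.02 came from slide 1, where both TN pigs were Large White and the HS pigs were 1 Creole and 1 F1, so that breed and temperature cannot be told apart there, and the other 4 slides gave -0.83 to -0.53. With slide as a block in the fit the adjusted p was 0.0184, and the call held without each pig in turn. It did not hold without any 1 slide: with 28 or 32 arrays left, the adjusted p was 0.0513, 0.109, 0.0840, 0.0693 and 0.0707 without slides 1 to 5, while the difference stayed between -0.77 and -0.63. Several lists of markers of other cells also had lower means in HS. Medulla genes were lower in 8 of 8 (median -0.21, 0 past the FDR), dividing cell genes in 6 of 6 (median -0.26, with CDK1 past the FDR), platelet genes in 3 of 4 (median -0.14, with TUBB1 past the FDR), Schwann cell genes in 6 of 6 (median -0.10, 0 past the FDR), cortex genes in 8 of 10 (median -0.05, with NR5A1 past the FDR) and red blood cell genes in 5 of 6 (median -0.10, 0 past the FDR). Endothelial, stromal, smooth muscle, adipocyte and lymphatic genes were lower in 3 of 7, 4 of 9, 3 of 7, 5 of 8 and 3 of 6, with medians between -0.04 and 0.03, and the lymphatic gene PROX1 was higher in HS past the FDR (0.29). For dividing cell, platelet, Schwann cell and cortex genes their part in the result was not tested. With the mean medulla level as a covariate, S100A8 still passed (-0.67, adjusted p = 0.0403). With the mean red blood cell level as a covariate, S100A8 differed by -0.60 with an adjusted p of 0.0574.

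S100A9, the partner of S100A8 in calprotectin, did not pass the test. Its level ran from 5.61 through 6.28 to 7.81 in TN and from 5.52 through 5.99 to 6.82 in HS, a difference of -0.18 (SE 0.14, adjusted p = 0.641). Without Large White TN pig 2, the highest at 7.81, the S100A9 difference was -0.09. It sat low on its probe, and 35 of 36 arrays were well above background. S100A12, the third granulocyte gene and a ligand of the receptor RAGE, ran from 10.07 through 11.41 to 12.52 in TN and from 9.50 through 10.88 to 11.91 in HS. Its difference of -0.53 (SE 0.16) missed the threshold with an adjusted p of 0.0857, and 16 of 18 HS pigs were under the TN mean for the same breed. All 3 granulocyte genes thus had a lower mean in HS, 1 of them past the test.

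Other granulocyte and mast cell genes gave no call. Of 9 tested, 0 passed the test by limma and 1 had an unadjusted p under 0.05, against 0.886% and 13.4% of all probes. Their median was -0.04. MPO, the myeloperoxidase of neutrophil granules, was above background on 1 of 36 arrays.

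Among the macrophage genes, those of C1q and CD14 came closest to the threshold. C1QA, 1 of 3 chains of C1q, ran from 11.85 through 12.56 to 13.33 in TN and from 11.34 through 12.17 to 13.39 in HS, a difference of -0.36 (SE 0.12, adjusted p = 0.128). C1QB differed by -0.28 (adjusted p = 0.184) and C1QC by -0.31 (adjusted p = 0.206). CD14, the co-receptor for bacterial lipopolysaccharide, ran from 10.70 through 11.11 to 11.30 in TN and from 10.63 through 10.89 to 11.27 in HS, a difference of -0.16 (SE 0.05, adjusted p = 0.102). In all 4 genes the TN and HS pigs overlapped over most of their range.

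**Figure D1:**
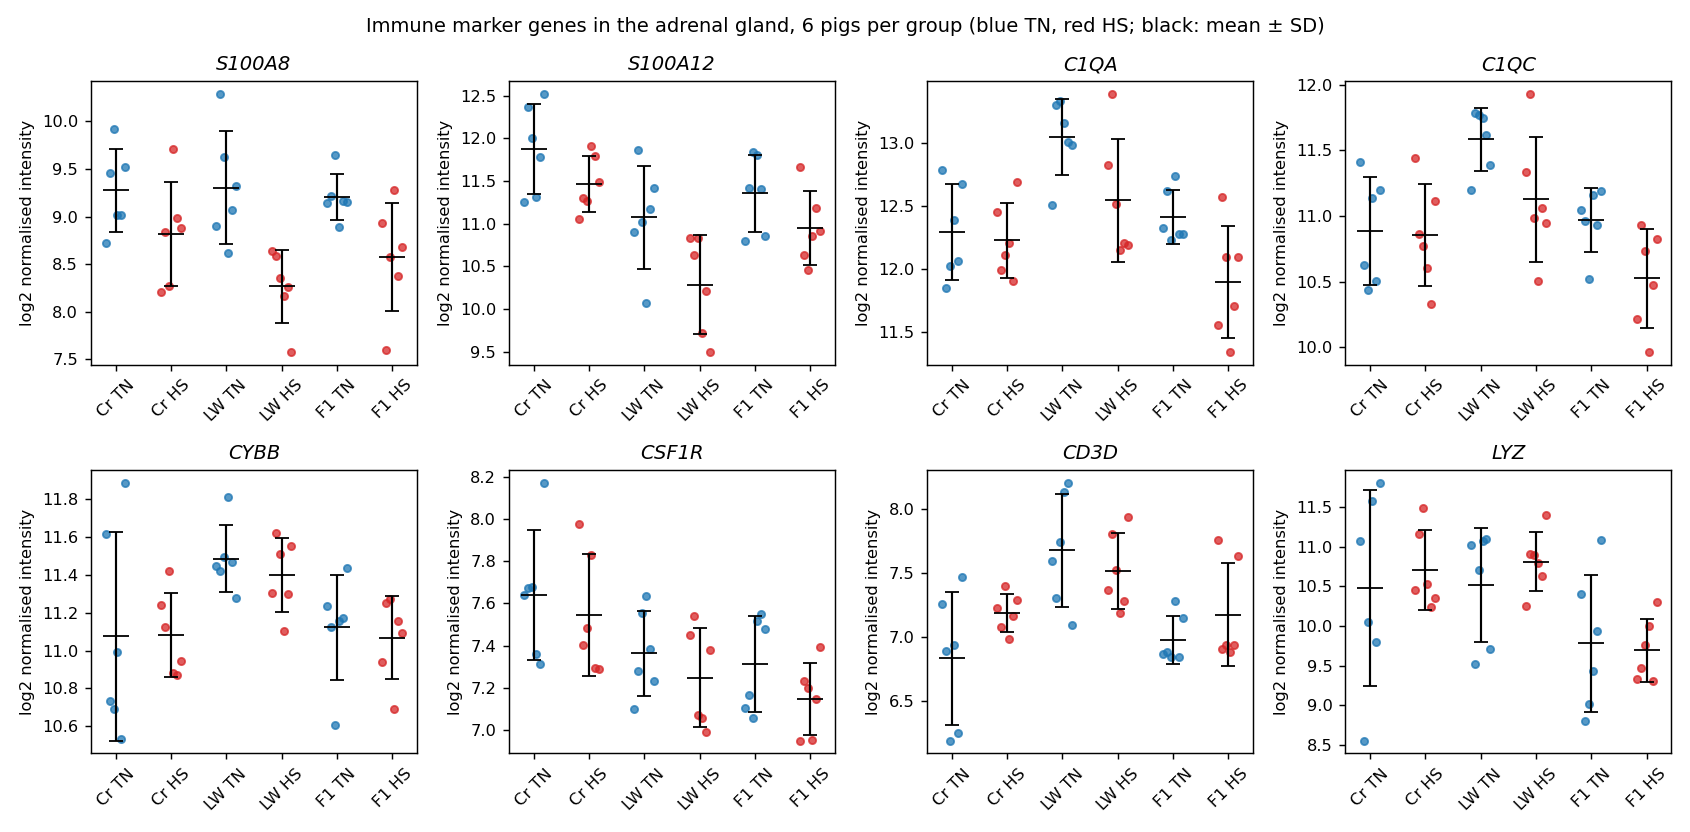
Log2 normalised intensity of 8 immune marker genes (y axes, each with its own range) in the 6 groups (x axes: Cr, Creole; LW, Large White; F1, their cross), with 1 point per pig (blue TN, red HS) and black bars for the mean and SD of 6 pigs. S100A8 lies lower in the red HS groups of each breed, S100A12 is highest in Creole and lowest in Large White, and LYZ spreads from 8.56 to 11.81 in Creole TN pigs.

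Whether the breeds differed in this response was asked by the interaction and within each breed. The interaction passed the test for 0 of 36 members, as for 0% of all probes, and no member had an unadjusted p under 0.05 by limma, against 4.21% of all probes. By limma's F test fitted across all probes, the members with the lowest unadjusted values were MS4A1 (0.0625), SPI1 (0.156) and CD3D (0.182), each at 0.982 after adjustment. MS4A1 is the B cell antigen CD20, SPI1 the transcription factor PU.1 of myeloid cells, and CD3D a chain of the T cell receptor complex.

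Within the breeds no member passed the test. In Creole pigs 0 of 36 had an unadjusted p under 0.05 by limma, against 4.8% of all probes (0% past the FDR). In Large White pigs 5 members did, against 6.27% (0.0109% past the FDR), and in F1 pigs 5 members, against 12.2% (0% past the FDR). S100A8 differed by -0.46 (SE 0.26) in Creole, by -1.04 (SE 0.26) in Large White and by -0.63 (SE 0.26) in F1. These estimates were not shown to differ, with an interaction p of 0.294 by limma and an adjusted p of 0.982.

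The C1q chains also had their smallest difference in Creole pigs, with Large White and F1 close to each other. C1QA differed by -0.07 in Creole, by -0.50 in Large White and by -0.52 in F1, each with an SE of 0.20 and adjusted p values of 1, 0.749 and 0.283. For C1QC the differences were -0.03, -0.46 and -0.45, and for C1QB -0.10, -0.35 and -0.39. The interaction p by limma was 0.223 for C1QA, 0.254 for C1QC and 0.454 for C1QB. Over the macrophage class, 9 of 16 genes were lower in HS in Creole, 14 in Large White and 15 in F1, with medians of -0.04, -0.12 and -0.15.

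More members passed the test between breeds than by temperature. By limma's F test over the 3 breeds, 11 of 36 members (30.6%) passed the FDR, against 10.4% of all probes. They were 8 macrophage genes (C1QA, C1QB, C1QC, CSF1R, CD163, MRC1, LYZ and CYBB), 1 T cell gene (CD3D), 1 B cell gene (CD79B) and 1 granulocyte gene (S100A12). Their adjusted p values lay between 0.00193 for S100A12 and 0.0456 for CYBB. This count moved with the probes and the arrays used. The second brightest probes gave 4 of the 21 members that have one, against 10.4% of all probes. C1QC, CSF1R, S100A12 and CD79B are not among these 21 and could not be called there. A fit without slide 3 gave 1 of 36 (against 4.36% of all probes in that fit), and one without slide 2 gave 4 of 36 (against 5.71%).

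Large White pigs were set against Creole pigs next. Of 36 members 6 passed (16.7%), against 11.3% of all probes. Higher in Large White were C1QA, C1QC, CYBB and CD3D (4 of 36, against 5.89% of all probes), and lower were S100A12 and CSF1R (2 of 36, against 5.38%). Most members had a higher mean in Large White, 31 of 36, with a median of 0.12, whereas 50% of all probes did.

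S100A12 showed the largest breed difference among the members. In TN it ran from 11.25 through 11.89 to 12.52 in Creole and from 10.07 through 11.09 to 11.86 in Large White. In HS it ran from 11.06 through 11.39 to 11.91 in Creole and from 9.50 through 10.42 to 10.84 in Large White. F1 pigs lay in between, from 10.79 through 11.41 to 11.85 in TN and from 10.45 through 10.88 to 11.66 in HS. At HS every Large White pig lay below every Creole pig, which no other member showed at either temperature and which held for 1.56% of all probes in HS and 2.42% in TN in either direction.

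S100A12 was 1.99-fold lower in Large White than in Creole, a difference of -0.99 (SE 0.19, 95% interval -1.38 to -0.60) with an adjusted p of 0.000511 by limma. All 12 Large White pigs lay below the Creole mean of their temperature. The F1 value differed from the mean of both parents by -0.02 (SE 0.16, 95% interval -0.36 to 0.31). S100A8, its neighbour on chromosome 4, differed between Large White and Creole by -0.26 (SE 0.19, adjusted p = 0.433), and S100A9 by 0.30 (SE 0.17, adjusted p = 0.309), or by 0.17 without Large White TN pig 2. The breed difference thus passed the test for 1 of the 3 genes of this cluster. Within 4 of the 5 slides S100A12 was lower in Large White. On slide 1 the difference was 0.32, between 1 Creole HS pig and 2 Large White TN pigs, so that breed and temperature cannot be told apart there.

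Of the 3 C1q chains, C1QA and C1QC were higher in Large White. C1QA ran from 11.85 through 12.16 to 12.79 in Creole, from 12.15 through 12.90 to 13.39 in Large White and from 11.34 through 12.25 to 12.74 in F1. The Large White and Creole ranges overlapped between 12.15 and 12.79. The difference of 0.54 (SE 0.15, adjusted p = 0.0131 by limma) is 1.45-fold, and 9 of 12 Large White pigs lay above the Creole mean of their temperature.

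C1QC ran from 10.33 through 10.82 to 11.44 in Creole and from 10.50 through 11.36 to 11.93 in Large White, a difference of 0.49 (SE 0.15, adjusted p = 0.0253). C1QB ran from 12.64 through 13.03 to 13.68 in Creole and from 12.97 through 13.41 to 14.01 in Large White, a difference of 0.35 (SE 0.12) that missed the threshold with an adjusted p of 0.0612. The 2 breeds overlapped in both genes. Both C1q calls held without each pig except that C1QC was lost without Large White HS pig 2 (adjusted p = 0.0535) and without Creole TN pig 3 (adjusted p = 0.0532). Without slide 2 or slide 3 neither C1QA (adjusted p = 0.0983 and 0.167) nor C1QC (0.108 and 0.211) passed, and without slide 4 C1QC was at an adjusted p of 0.05001. C1QC, read by a single probe, was also lost with red blood cell markers as a covariate (adjusted p = 0.0666), and C1QA with its probes averaged (adjusted p = 0.0644).

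CYBB, on the X chromosome, encodes the catalytic subunit of the phagocyte NADPH oxidase, which makes the superoxide burst. It ran from 10.53 through 10.97 to 11.89 in Creole and from 11.10 through 11.46 to 11.81 in Large White. Every Large White pig lay above the Creole mean of its temperature, although Creole pigs spread over a wider range on both sides. CYBB was higher by 0.36 (SE 0.12, adjusted p = 0.0351), and 10 of the 36 fits without 1 pig gave an adjusted p over 0.05, the highest 0.0713. The CYBB call was also lost without slide 1, 2, 3 or 4 (adjusted p = 0.0587, 0.0675, 0.266 and 0.0983).

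CSF1R, the receptor for the growth factor that macrophages need to survive, went the other way. It ran from 7.29 through 7.56 to 8.17 in Creole and from 6.99 through 7.33 to 7.63 in Large White, and no Large White pig lay above the Creole mean of its temperature. The difference was -0.29 (SE 0.09, adjusted p = 0.0421). This call lay at the threshold and was lost in 13 of the 36 fits without 1 pig, where the adjusted p reached 0.0833. It was also lost without slide 1, 2, 4 or 5 (adjusted p = 0.200, 0.0709, 0.170 and 0.0617) and in 6 of 13 other settings, with an adjusted p of up to 0.213. As a macrophage gene that was lower while C1q was higher, CSF1R did not share the direction of its class, in which 14 of 16 genes had a higher mean in Large White (median 0.15).

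CD3D ran from 6.19 through 7.12 to 7.46 in Creole and from 7.09 through 7.55 to 8.20 in Large White, with the 2 breeds overlapping only between 7.09 and 7.46. It was higher in Large White by 0.59 (SE 0.14, adjusted p = 0.00581), and 11 of 12 Large White pigs lay above the Creole mean of their temperature. The CD3D call was lost without slide 3 (adjusted p = 0.0905) and with the adipocyte markers as a covariate (adjusted p = 0.0632). Read by their brightest probes, all 10 T cell genes had a higher mean in Large White, with a median of 0.22. The second probes of CD5 and CD2 gave -0.06 and -0.04, neither past the test. Those of CD3D, CD3E, CD8A, LCK and GZMB gave positive differences. CD3E, CD3G and CD8A, the other receptor chains and the co-receptor of cytotoxic T cells, differed by 0.40, 0.33 and 0.41 and missed the threshold (adjusted p = 0.0582, 0.175 and 0.0788). The 3 B cell genes differed by 0.05 to 0.07, with none past the test.

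Markers of other cells of the gland also differed between these breeds, where 11.3% of all probes passed (5.89% higher and 5.38% lower in Large White). Of 8 adipocyte genes 6 passed, 5 of them lower in Large White, such as ADIPOQ (-1.62, adjusted p = 3.42e-06), the hormone adiponectin. The summed level of the adipocyte list ran from 4186 to 9966 in Creole TN pigs and from 4333 to 5573 in Large White TN pigs, and from 5235 to 8710 against 3860 to 5869 in HS. Of 8 medulla genes 4 were higher in Large White past the test, such as SCG2 (1.03, adjusted p = 1.88e-06), a granin of chromaffin cells. Of 10 cortex genes 2 passed, both lower, and in the endothelial (7 genes), stromal (9), smooth muscle (7), red blood cell (6) and lymphatic (6) lists 1 gene each passed. With the mean adipocyte level as a covariate, 3 of 36 members still passed, against 3.32% of all probes in that fit, C1QA (0.76, adjusted p = 0.0182), C1QC (0.67, adjusted p = 0.0445) and S100A12 (-1.25, adjusted p = 0.00342). With the medulla level as a covariate, the adjusted p of these 3 genes was 0.0133, 0.0338 and 0.000934.

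Split by temperature, 3 of 36 members passed between Large White and Creole in TN, against 3.48% of all probes (2.02% higher and 1.46% lower in Large White), and 1 of 36 in HS, against 2.8% (1.37% higher and 1.43% lower). In TN these were CD3D (0.85, SE 0.20, adjusted p = 0.0119), C1QA (0.75, SE 0.20, adjusted p = 0.0301) and C1QC (0.70, SE 0.20, adjusted p = 0.0473), all higher in Large White. In HS the same genes differed by 0.32, 0.32 and 0.27, none past the test. In HS it was S100A12 that passed (-1.18, SE 0.27, adjusted p = 0.0130), with -0.80 (adjusted p = 0.106) in TN. That the breeds differ more at one temperature than at the other was not shown for any of them, since their interaction p values by limma lay between 0.182 and 0.526.

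These calls depended on single pigs and slides. Without Creole TN pig 2, 3 or 5, or without Large White TN pig 2, 3 or 4, CD3D was the only member that passed. Without slide 2, 3 or 4 no member passed in TN, CD3D included, and without slide 4 or 5 the HS call of S100A12 was lost.

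F1 pigs were compared with the mean of both parents. No member of 36 passed the FDR by limma, against 0.409% of all probes (0.202% higher and 0.207% lower in F1), and 17 had an unadjusted p under 0.05, against 11% of all probes. Of the members, 34 of 36 had a lower mean in F1, with a median of -0.22, whereas 49.3% of all probes had a higher mean. All 16 macrophage and all 4 pan-leukocyte genes were on the lower side, with medians of -0.26 and -0.22. The T, B and granulocyte medians were -0.21, -0.10 and -0.03.

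The lowest adjusted p values belonged to CD79B (0.0966), LYZ (0.101) and C1QB (0.104). CD79B, a signalling chain of the B cell receptor, ran from 5.50 through 5.72 to 6.09 in F1, from 5.47 through 6.04 to 6.62 in Creole and from 5.67 through 6.09 to 6.35 in Large White, a difference of -0.31 (SE 0.09). It lay near the detection limit, with 29 of 36 arrays well above background. LYZ, the lysozyme that cuts bacterial cell walls, ran from 8.80 through 9.62 to 11.08 in F1, from 8.56 through 10.49 to 11.81 in Creole and from 9.52 through 10.84 to 11.40 in Large White.

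LYZ had the widest range over the 36 pigs of the tested members. It was 1.85-fold lower in F1 than the parental mean, a difference of -0.89 (SE 0.25, 95% interval -1.39 to -0.39), and 11 of 12 F1 pigs lay below the parental mean of their temperature. Its 3 other probes gave -0.90, -0.86 and -0.87. C1QB differed by -0.39 (SE 0.11) and lay below the parental mean in 12 of 12 F1 pigs, as did C1QC, AIF1 and TYROBP. The second C1QB probe gave -0.07 (adjusted p = 0.803 by limma). CD163, the haemoglobin scavenger receptor, differed by -0.41 (SE 0.13, adjusted p = 0.168) and lay below in 11 of 12. MRC1, the mannose receptor, differed by -0.26 (SE 0.09, adjusted p = 0.252) and lay below in 9 of 12.

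**Figure D2:**
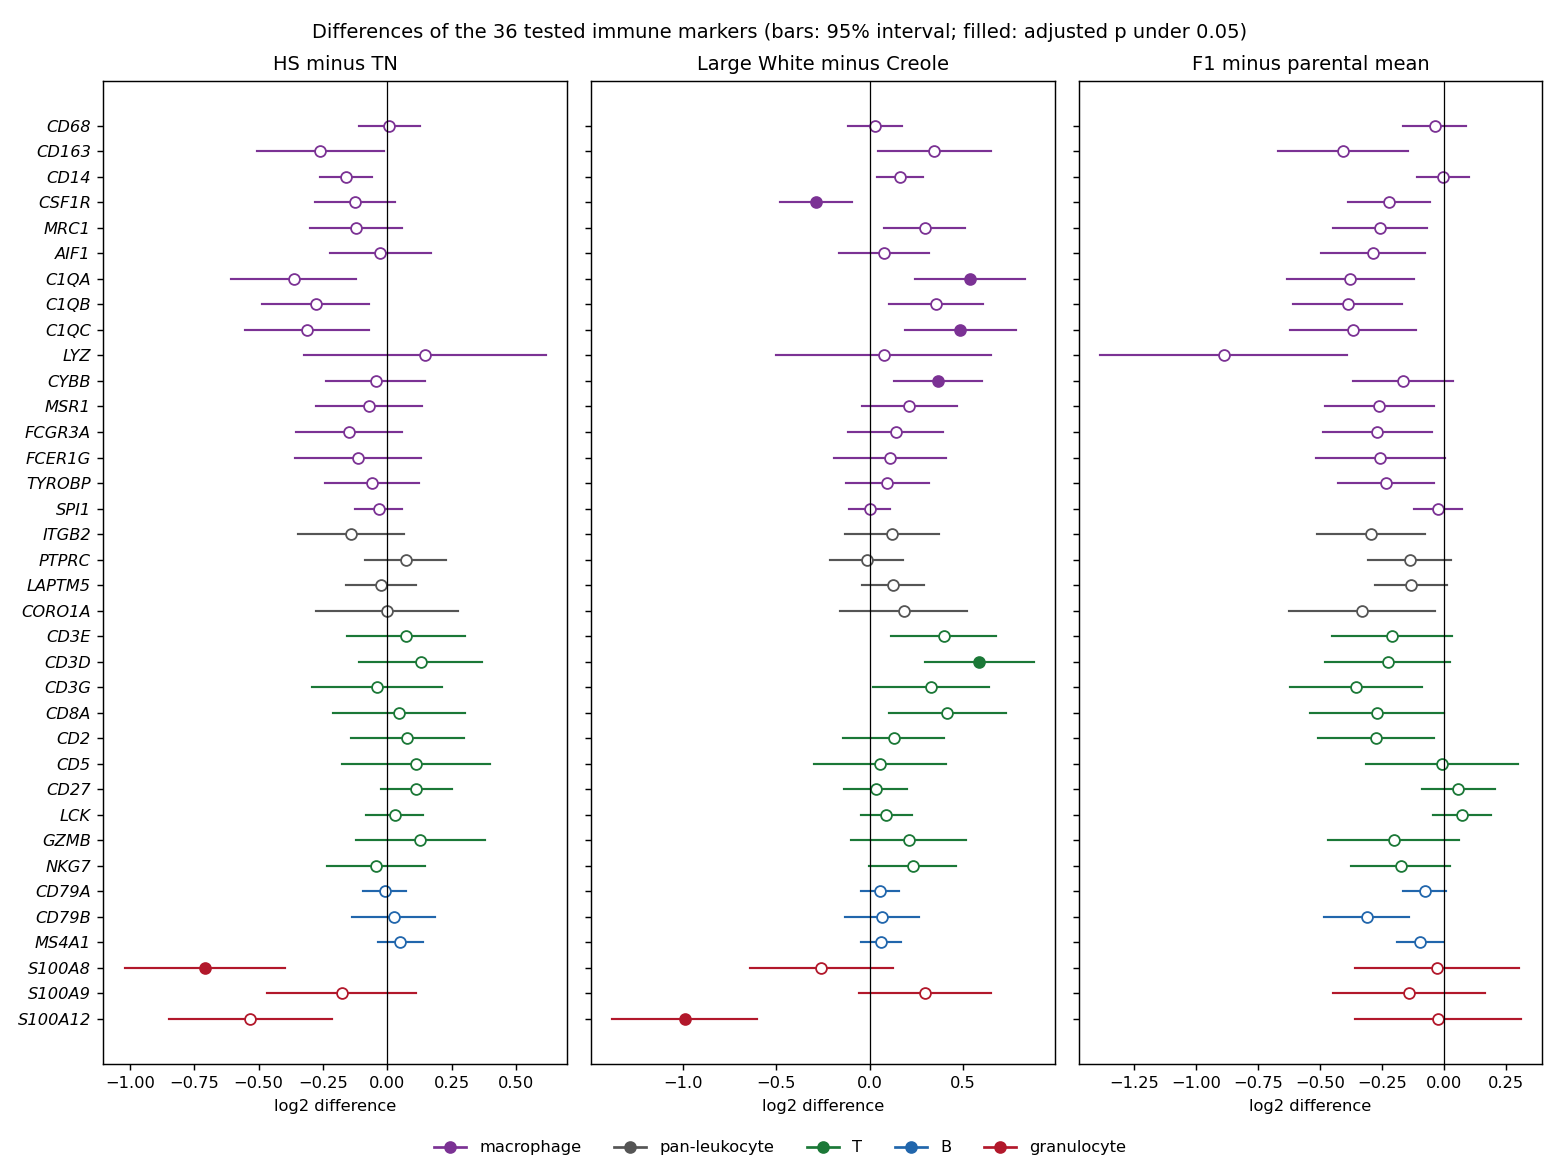
Log2 difference (x axes) of each of the 36 tested immune markers (y axis, coloured by class) between HS and TN, between Large White and Creole, and between F1 and the parental mean, with 95% intervals as bars and filled points for an adjusted p under 0.05. S100A8 is the 1 filled point by temperature, 6 points are filled between Large White and Creole, and 34 of 36 open points lie below 0 for F1.

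How the members moved together from pig to pig was described after each group's mean was taken out, over 36 pigs. These correlations share the arrays and their normalisation and are given as a description. Pairs of macrophage genes had a median Pearson r of 0.49 over 120 pairs, from 0.01 to 0.94. The 3 C1q chains rose and fell together, with r of 0.94 for C1QB and C1QC, 0.91 for C1QA and C1QB and 0.87 for C1QA and C1QC. Their nearest partner outside C1q was FCGR3A, the receptor for bound antibody, with r of 0.93 to C1QB. AIF1 and TYROBP, a calcium-binding protein of activated macrophages and a signalling adaptor, reached 0.92.

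Pan-leukocyte genes had a median r of 0.50 to the macrophage genes over 64 pairs, from -0.35 to 0.82, and of 0.27 to the T cell genes over 40, from -0.10 to 0.90. CORO1A, which binds actin beneath the leukocyte membrane, followed CD3E (r = 0.90) and CD3G (r = 0.88). Between macrophage and T cell genes the median was 0.33 over 160 pairs, from -0.39 to 0.70. Pigs with higher macrophage markers thus tended to have higher T cell markers too, though not for every pair. Granulocyte genes stood apart, with a median of -0.12 to the macrophage genes over 48 pairs and -0.14 to the T cell genes over 30, and 0.47 among themselves over 3 pairs. S100A8 and S100A12 had an r of 0.66. The lowest r of all 630 pairs was -0.52, between LYZ and S100A12.

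**Figure D3:**
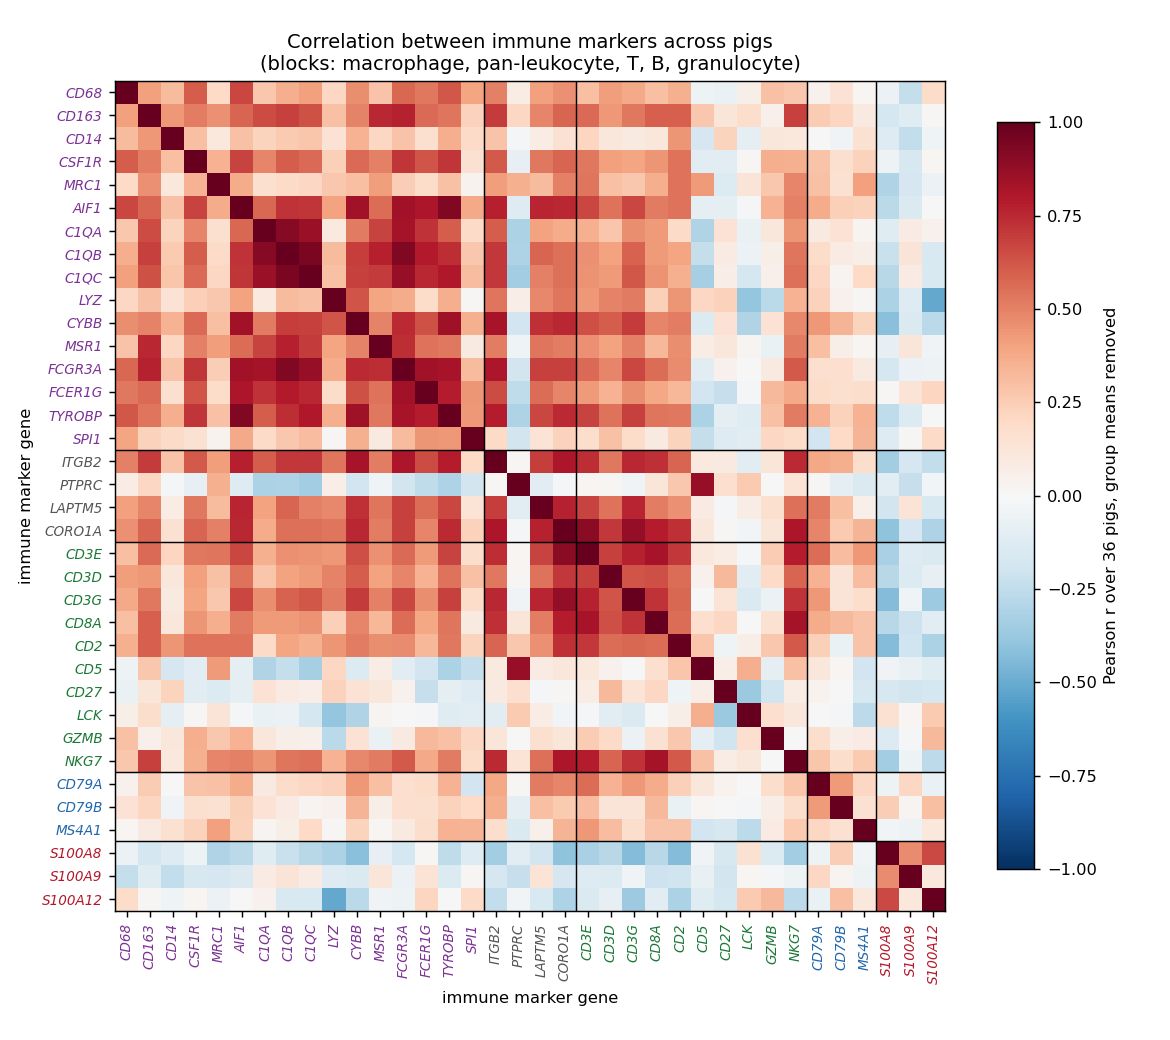
Pearson r between the 36 tested immune markers (both axes, ordered and coloured by class, with lines between classes) over 36 pigs after group means were removed, from blue (-1) to red (1). The C1q chains, FCGR3A, AIF1 and TYROBP form the darkest block, the granulocyte rows are pale or blue against the rest, and PTPRC and CD5 pair with each other (r = 0.87) rather than with their classes.

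Other probes of the same gene served as a check on the values, for the 21 members with more than 1 tested probe. In LYZ, AIF1, FCGR3A, FCER1G and TYROBP every other probe followed the brightest one with r of 0.93 to 0.997, and the 5 other probes of CD163 did so with 0.78 to 0.87. Probes of LYZ, FCER1G, TYROBP, LAPTM5, CD3E, CD8A and GZMB share up to 60 bases with the brightest one, so these probes are in part the same sequence read more than once. For the members called between the breeds the other probes varied. The second MRC1 probe (r = 0.79) gave 0.45 between Large White and Creole (adjusted p = 0.00476), where the brightest gave 0.29 (adjusted p = 0.0750), and the 3 other LYZ probes passed the test over the 3 breeds as the brightest did. Of the 5 other CD163 probes 1 passed it (adjusted p = 0.0299) and 4 did not (adjusted p = 0.0981 to 0.157), and neither the second C1QB probe (adjusted p = 0.772) nor the second CYBB probe (adjusted p = 0.0552) passed over the breeds. Of the 6 members called between Large White and Creole, the 3 with a second probe did not pass with it. The second C1QA probe (r = 0.53) gave 0.06 between Large White and Creole (adjusted p = 0.756) but passed over the 3 breeds (adjusted p = 0.0347), and the second CD3D probe (r = 0.65), at a level of 5.51 near background, gave 0.06 (adjusted p = 0.692). That of CYBB (r = 0.74) gave 0.20 (adjusted p = 0.109). S100A8, S100A12, C1QC and CSF1R had a single tested probe.

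**Figure D4:**
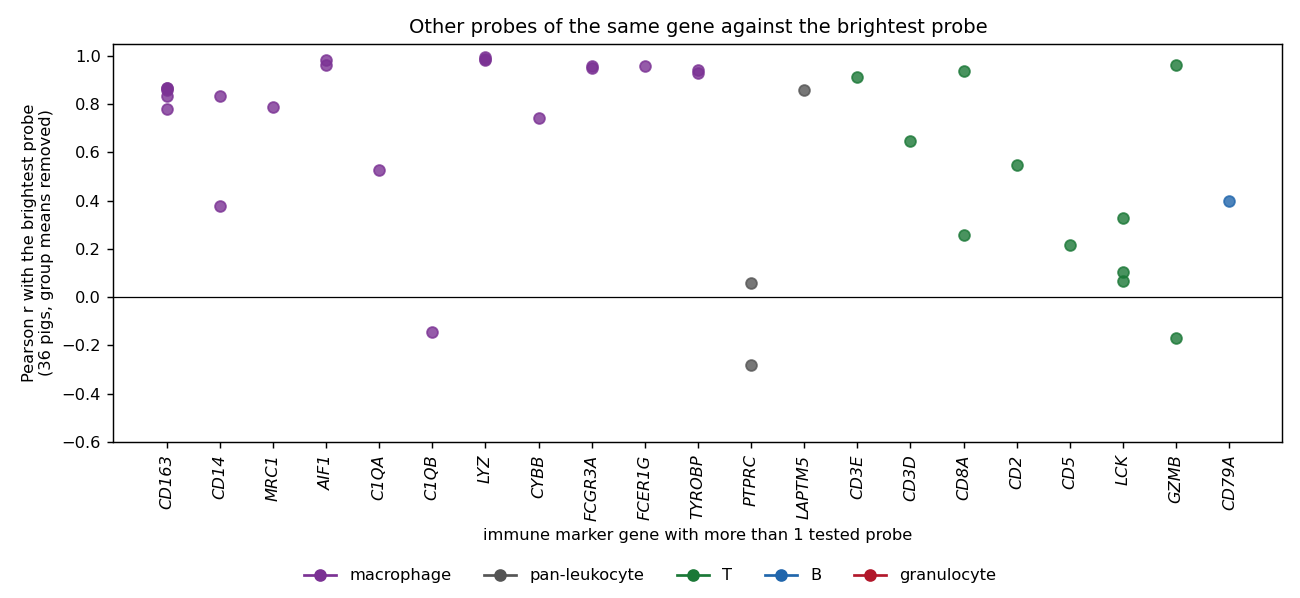
Pearson r (y axis, 36 pigs, group means removed) between the brightest probe of a gene and each other tested probe of it, for the 21 immune markers with more than 1 tested probe (x axis, coloured by class). The probes of LYZ, AIF1, FCGR3A, FCER1G and TYROBP lie near the top. The other probes of PTPRC, CD5 and LCK, the second probe of C1QB and the third probes of GZMB and CD8A lie between -0.28 and 0.33.

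In PTPRC, CD5, LCK and C1QB the brightest probe did not follow the others. The second C1QB probe, the only other one, lay at 8.42 against 13.20 and had an r of -0.15 with the brightest, which followed C1QA and C1QC as given above. PTPRC is CD45, the phosphatase on all leukocytes, CD5 a brake on T cell receptor signals, and LCK the kinase that starts them. The last 30 bases of the brightest probes of these 3 genes (1) and of the next brightest (2) are shown because they differ in kind, with a TG repeat, a run of A and G only, and an AATAAA in capitals.

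PTPRC probe 1: catgccTGTGTGTGTGTGTGTGTGTGTGTG
PTPRC probe 2: ggaagatggaaagcaaacgtatggagaagt
CD5 probe 1: ctaagaaacagcAAAGAAAGAAAGAAAAAA
CD5 probe 2: gccaccagcttctggagagaaaatcccact
LCK probe 1: aaaccacattaAATAAAgagtctgttgcct
LCK probe 2: ttggacacttgtccaagttgtccctttctg

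The brightest PTPRC probe ended in 24 bases of the repeat. Its mean level was 11.61, against 6.94 and 6.72 for the other 2 PTPRC probes, with which it had an r of -0.28 and 0.06. TGTGTGTGTGTGTGTG, sought on both strands, occurred in 44 of 60305 probes (0.073%), of which 43 were tested. Over pigs the PTPRC probe followed the other 42 of these with a median r of 0.87, against -0.05 with all tested probes. The brightest CD5 probe followed the 43 repeat probes with a median r of 0.77 and its own gene's second probe with 0.22. Its run of 18 bases of A and G only, or the C and T run of the other strand, occurred in 336 probes (0.557%). With the other 284 of these that were tested, the brightest CD5 probe had a median r of 0.02.

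For LCK the 3 other probes had an r of 0.10, 0.07 and 0.33 with the brightest. AATAAA, on either strand, occurred in 8531 probes (14.1%), and the median r of the LCK probe with those tested was 0.01. The second PTPRC probe gave 0.05 between HS and TN, 0.15 between Large White and Creole and -0.24 for F1 against its parents, where the brightest gave 0.07, -0.02 and -0.14. The second LCK probe gave 0.33 between Large White and Creole (adjusted p = 0.0874), where the brightest gave 0.09. None of these values passed the test with either probe.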

How the data were processed

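Total RNA of each gland was labelled with Cy3 and the arrays were read with Agilent Feature Extraction 10.10.1.1 by the authors. Per spot, the deposited scanner files give linear intensity before any scaling across arrays. From the median intensity the authors made, by quantile normalisation, a deposited table of log2 values for 45348 probes, with 0 columns of other samples.

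Here control spots and outlier spots were left out, and the median intensity was quantile normalised and taken to log2. Kept were probes exceeding background on 9 or more of either the 18 TN or the 18 HS arrays (45943, of which 89 had a missing spot). Linear models were fitted by lmFit and eBayes of limma 3.58.1 (R 4.3.3, with statmod 1.5.0 for the slide as a random block) on breed and temperature, or with the 6 groups for comparisons within a breed or temperature. The labels give no pen, slaughter day or parents, so these terms of the study's model were not used.

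Probes were matched to genes by name, or by RefSeq transcript for CYBB and FCGR3A, which the array calls GP91-PHOX and FCGR3B. The brightest probe in the authors' table stood for a gene. Members past the FDR are named with their values, or the 3 with the lowest p where none passed. The members, lists and alternatives were chosen with earlier results of these data known. The procedure was tested on simulated data. The simulated pigs were independent, with no effect of slide, pen or litter, so the simulation cannot speak to such effects. Gene positions come from RefSeq (Sscrofa11.1), and sequences are those of the array's probes.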

Additional observations from a re-analysis of the deposited data

Results flagged for a closer look

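A pig stood far from the other 5 of its group, by Dixon's test, in 12 of the 246 groups of 6 examined over the 36 members and the 5 class means. Chance alone would give about 12.3, at 1 in 20. Log2 levels are given, and no explanation was tested. AIF1 was 10.83 in F1 TN pig 3, against 11.09 to 11.20 in the others, and CYBB was low in the same pig at 10.61, against 11.13 to 11.44. CD68 was high in Creole HS pig 1 (6.67, others up to 6.16) and in Creole TN pig 6 (6.61, others up to 6.22). CD79A was low in Creole TN pig 5 (5.71, others from 6.08) and in F1 HS pig 1 (5.93, others from 6.03). LAPTM5 was 10.90 in F1 TN pig 2, against 10.62 to 10.72, and SPI1 was 5.75 in F1 TN pig 4, against 5.62 to 5.66. LCK was 12.81 in F1 HS pig 3, against 12.39 to 12.54. PTPRC was 11.24 in Large White HS pig 1, against 11.68 to 11.92. TYROBP was 9.86 in Large White HS pig 4, against 10.40 to 10.71. S100A9 was 7.81 in Large White TN pig 2, against 5.92 to 6.51, and this pig set the highest S100A9 level of all.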

How the results depend on the processing

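The counts of members past the FDR were recomputed under other settings and without each pig. Within each breed, and for the interaction, they were 0 under all settings run. By temperature the count was 1, and it was 0 without any 1 of the 5 slides, with the second brightest probes and with red blood cell markers as a covariate, 2 with array weights or medulla markers as a covariate (CD14 joined), and 1 to 2 without each pig, with 2 without Large White TN pig 4 (S100A12 joined) or Large White HS pig 5 (CD14 joined). Between the 3 breeds it was 11, and it was 4 with the second brightest probes or without slide 2, 7 with adipocyte markers as a covariate (chosen after seeing the data) or without slide 4, 1 without slide 3, and 7 to 14 without each pig, with 7 without Large White TN pig 5 or HS pig 2. Between Large White and Creole it was 6, and it was 2 with the second brightest probes (CD14 and MRC1, none of the 6) and without slide 2 or slide 3, 3 with the adipocyte covariate or without slide 4, and 3 to 9 without each pig, with 3 without Creole TN pig 3. In TN it was 3, and it was 1 with the red blood cell or the adipocyte covariate or without slide 1, 0 with the second brightest probes or without slide 2, 3 or 4, and 1 to 4 without each pig. In HS it was 1, and it was 0 with the second brightest probes or without slide 4 or 5, and 1 to 1 without each pig. For F1 against its parents it was 0, and it was 1 with slide as a fixed block (CD79B, adjusted p = 0.0385) and 0 to 1 without each pig, with 1 without Creole HS pig 1 (CD79B) or Creole TN pig 2 (LYZ). The second brightest probes exist for 21 members only. S100A8, S100A12, C1QC, CSF1R and CD79B are not among them, so the loss of their calls with these probes was fixed in advance. Leaving out a slide removes 4 or 8 arrays. Otherwise the cause was not tested. The lower S100A12 in Large White was past the FDR in all 54 settings it could be fitted in, from -1.25 to -0.83. No sign of a called member turned under any setting run. Over all probes the count by temperature, 407, was 890 with slide as a fixed block, 801 with slide as a random block, 822 with the medulla covariate, 753 with array weights, 181 with the red blood cell covariate, and 169, 33, 34, 54 and 323 without slides 1 to 5. The share of all probes called moved too. Between the 3 breeds, 10.4% became 4.58% with the adipocyte covariate and 5.71%, 4.36% and 8.16% without slides 2, 3 and 4. Between Large White and Creole, 11.3% became 3.32%, 7.27%, 5.57% and 8.17% in the same fits. In TN, 3.48% became 2.31% with the red blood cell and 1.04% with the adipocyte covariate, and 1.78%, 1.33%, 1.47% and 2.8% without slides 1 to 4. In HS, 2.8% became 1.22% and 2.34% without slides 4 and 5, and for F1 0.409% became 0.651% with slide as a fixed block.

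No paired analysis was possible, since each pig was slaughtered in either TN or HS and the labels give no litter. The labels carry no replicate numbers, and those used here follow the order of deposition. Array number limits the precision. CD79B, SPI1 and CD27 were above background on 29, 32 and 34 of 36 arrays.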

Other observations

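Other immune genes, outside the members, were read from the same arrays. Of 18 tested macrophage and dendritic cell genes 0 passed by temperature by limma and 2 had an unadjusted p under 0.05, against 0.886% and 13.4% of all probes. Between Large White and Creole 5 of the 18 passed, in both directions, against 11.3% of all probes. Higher in Large White were GPNMB (0.49, SE 0.12, adjusted p = 0.00548), a lysosomal glycoprotein of macrophages, and LYVE1 (0.45, SE 0.13, adjusted p = 0.0190), found on perivascular macrophages and lymphatic endothelium. Lower were CD209 (-0.42, SE 0.10, adjusted p = 0.00299), a lectin of macrophages and dendritic cells, FOLR2 (-0.40, SE 0.12, adjusted p = 0.0274), a folate receptor of tissue macrophages, and CX3CR1 (-0.48, SE 0.16, adjusted p = 0.0465), the fractalkine receptor of monocytes and resident macrophages. The median of this list was 0.09, so that, as with C1q and CSF1R among the members, genes of 1 cell class moved in opposite directions between these breeds.

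For F1 against its parents, 15 of these 18 genes, 9 of 12 T and NK genes, 6 of 6 B and plasma cell genes, 8 of 9 granulocyte and mast cell genes and 6 of 7 pan-leukocyte genes had a lower mean, with none past the FDR and medians of -0.17, -0.09, -0.07, -0.08 and -0.25. At an unadjusted p under 0.05 by limma there were 7, 0, 1, 2 and 4, against 11% of all probes. Lower means in F1 were not limited to immune genes. Stromal genes were lower in 7 of 9 (median -0.14), lymphatic genes in 4 of 6 (-0.11), dividing cell genes in 6 of 6 (-0.10) and endothelial genes in 6 of 7 (-0.06), while cortex and medulla genes had medians of 0.01 and 0.02 and adipocyte genes of 0.10.

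Between Large White and Creole, 1 of 12 T and NK genes passed, CD96 (0.28, SE 0.09, adjusted p = 0.0445), against 11.3% of all probes. Of 9 other granulocyte and mast cell genes 7 had a higher mean in Large White (median 0.11) and 2 passed. KIT, the stem cell factor receptor found on mast cells and other cells, was higher by 1.72 (SE 0.11, adjusted p = 1.33e-13), a larger difference than that of S100A12 and in the opposite direction. MS4A2, a chain of the IgE receptor of mast cells, was lower (-0.23, SE 0.07, adjusted p = 0.0240).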
